A study of Mus musculus with 6 samples.

Results

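The genes described here encode the inducible catalytic subunits of the proteasome (Psmb8, Psmb9, Psmb10), the subunits of its activator cap (Psme1, Psme2), the peptide transporter (Tap1, Tap2), the loading factor tapasin (Tapbp), the trimming peptidase of the endoplasmic reticulum (Erap1) and a transcriptional regulator of class I genes (Nlrc5). They were taken by gene name from a table of 56448 genes, and all 10 were found once each. The values came from messenger RNA of cultured 4T1 cells, a mouse breast cancer line. The series is labelled as sequencing and its cells as cultured, but its design text speaks of microarrays and its extraction protocol of tissue. The deposited values are TPM with a gene length, a measure made from sequencing reads. The files do not settle the mention of tissue. Of the 6 libraries 3 carry the label in9 and 3 the label LV2. The study set out to lower a microRNA, miR-9, stably with a lentivirus. The labels do not spell out in9 or LV2, say which of them is the control, or say whether a line is 1 clone, and differences are those of in9 over LV2.

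Class I molecules display peptides from inside the cell to CD8+ T cells. The proteasome cuts proteins into peptides, the transporter carries them into the endoplasmic reticulum, where Erap1 trims them, and tapasin holds an empty class I molecule to the transporter until a peptide is bound. Interferons induce Psmb8, Psmb9 and Psmb10, whose products take the places of the standard subunits encoded by Psmb5, Psmb6 and Psmb7 and shift the cleavage preference of the particle.

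The microRNA named in the series and the stretches of DNA that the results refer back to are shown first. Below are the mature miR-9-5p of mouse (RefSeq, GRCm38.p6), with the seed, bases 2 to 8, in capitals, and the 1 match to that seed found in the members, which lay in the 3' UTR of Tap1 (GENCODE M21, plus strand, chr17:34197139-34197167), with the 7 matching bases in capitals.
mmu-miR-9-5p: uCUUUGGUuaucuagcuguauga
Tap1 3' UTR: gcttgcaattaACCAAAGgcataggctgg
For each gene, the longest 3' UTR that GENCODE M21 annotates was searched for ACCAAAG and CCAAAGA, the 7-base matches of the seed, counting overlapping matches once. Of the 10 members 1 held a match, against 22.2% of the 10952 tested genes with an annotated 3' UTR. The 3' UTR of Tap1 has 451 bases, and those of Psme2, Psmb10, Psme1, Psmb8, Tap2 and Psmb9 have 44, 55, 147, 188, 228 and 298 bases. Those of Tapbp, Nlrc5 and Erap1, also without a match, have 1141, 1197 and 2472 bases. The median over tested genes was 1167 bases. The match describes letters only and says nothing of binding.

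Psmb9 and Tap1 lie head to head on mouse chromosome 17. The bases between their RefSeq start sites are shown because both genes are transcribed outward from them (chr17:34187331-34187555, plus strand, 225 bases). The reverse complement of the GC box GGGCGG is in capitals.
Psmb9 to Tap1: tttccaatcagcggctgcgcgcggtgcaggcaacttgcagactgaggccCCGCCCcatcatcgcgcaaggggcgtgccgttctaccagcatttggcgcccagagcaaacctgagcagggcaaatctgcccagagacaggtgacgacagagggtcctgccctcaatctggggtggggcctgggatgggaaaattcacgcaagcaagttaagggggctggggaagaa
RefSeq start-site windows, from 250 bases before to 50 bases after a start, were at hand for 8 members. Motifs were searched on both strands. Those described are GAAA followed after any 2 bases by GAAA (the core of the interferon-stimulated response element), GGGA followed after any 2 bases by TTCC (a kappa B site) and GGGCGG. The interferon element core was found in the windows of Psme1 and Erap1, beginning 9 bases after the start in Psme1 (chr14:55578493-55578522) and 4 bases before it in Erap1 (chr13:74639839-74639868). Both genes lie on the plus strand, and the motif is in capitals.
Psme1 window: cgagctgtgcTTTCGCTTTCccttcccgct
Erap1 window: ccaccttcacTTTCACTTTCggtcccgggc
Of all 32851 windows, 3.44% held the interferon element core, 1.47% the kappa B motif and 35.7% the GC box. The kappa B motif was found in no member window. The GC box was found in those of Psme1, Psme2, Tapbp, Psmb9, Tap1 and Erap1.

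Of the table's genes, between 20123 and 20538 were above 0 in a library. TPM keeps no record of depth, so the depth is unknown. The in9 library of replicate 1 lay near LV2 on the leading principal component: it scored -2.68, the other in9 libraries 26.1 and 27.8, and LV2 libraries -22.2 to -6.98. Set against the LV2 mean, the 13406 tested genes had a median log2 difference of 0.00 in in9 replicate 1, 0.08 in replicate 2 and 0.09 in replicate 3. No label says whether replicates are separate cultures, and the p-values therefore cover a spread that may be technical. The carcinoma markers Krt8 and Krt18, keratin genes of simple epithelium, averaged 877 and 924 TPM in in9 and 930 and 975 TPM in LV2. Of the other carcinoma markers, the adhesion gene Epcam averaged 36.9 TPM in in9 and 45.8 TPM in LV2 (adjusted p = 0.0633 in limma), and Cdh1, the E-cadherin gene, 141 TPM in in9 and 124 TPM in LV2 (adjusted p = 0.201 in limma). The 8 markers summed to 2229 to 2286 TPM in in9 and 2332 to 2394 TPM in LV2. Of 10 haematopoietic markers 8 were above 0 in some library and 1, Cd68, reached a mean of 1 TPM. The list summed to 34.2 to 40.8 TPM in in9 and 27.8 to 29.6 TPM in LV2, nearly all of it Cd68 (37.6 and 28.2 TPM). The pan-leukocyte gene Ptprc averaged 0.037 TPM in in9 and 0.063 TPM in LV2, and Adgre1 and Nkg7 were listed at 0 in all libraries. Of 8 fibroblast and endothelial markers Pdgfra and Cdh5 reached 1 TPM, the list summed to 9.72 to 10.5 TPM in in9 and 6.41 to 8.23 TPM in LV2, and Lum was listed at 0. The part of these markers in the results was not tested. In RNA from whole cultures, a change in the share of cells and a change in the RNA per cell cannot be told apart.

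The comparison of in9 with LV2 asked which of the peptide supply genes differed between the lines. Psmb8 and Tap1 were higher in in9, by 1.40-fold and 1.40-fold in mean TPM, and no member was lower. Psmb9, Nlrc5, Tapbp, Tap2 and Psme1 had in9 values above all LV2 values without passing the test over all genes. Psmb10 and Erap1 overlapped between the groups, and Psme2 was nearly equal. In limma on log2(TPM + 1), with Benjamini-Hochberg adjustment over 13406 genes and calls at an adjusted p under 0.05, 2 of 10 members were called higher, against 0.821% of all tested genes, and none lower, against 0.194%. At an unadjusted p under 0.05, 8 of 10 were higher, against 13.6% of tested genes, and none lower, against 5.86%. The groups did not overlap in 7 members, all higher, against 17.4% of tested genes that were higher without overlap and 8.08% that were lower. All 10 log2 fold changes were positive, as were 63.7% of those of all tested genes, and their median was 0.29, against 0.06 over all tested genes.

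**Figure D1:**
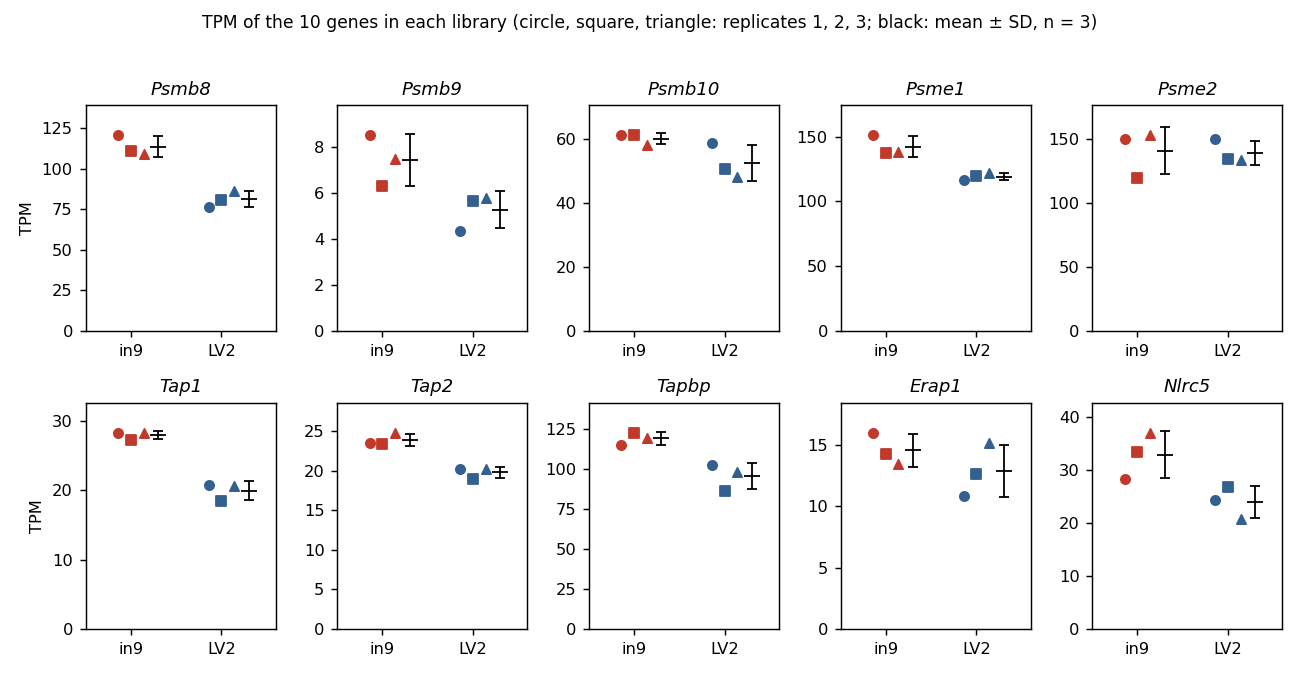
TPM of each of the 10 genes by library, with the 3 in9 libraries (red) left of the 3 LV2 libraries (blue), symbols for replicates 1 to 3, and the mean and SD in black (n = 3). In Psmb8, Psmb9, Psme1, Tap1, Tap2, Tapbp and Nlrc5 every in9 point lies above every LV2 point, and in Psmb10, Psme2 and Erap1 the groups overlap.

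The catalytic subunits stood at very different levels. Psmb8, whose product takes the place of the chymotrypsin-like subunit, had 121, 111 and 109 TPM in in9 against 76.3, 80.9 and 86.1 TPM in LV2. Every in9 library was above every LV2 library, with means of 113 ± 6.38 and 81.1 ± 4.91 TPM (SD, n = 3). On the log2 scale in9 exceeded LV2 by 0.48 ± 0.06 (SE), and limma gave an adjusted p of 0.0424. Psmb9, whose product replaces the caspase-like subunit, was the lowest of the 10 genes at 8.52, 6.28 and 7.48 TPM in in9 against 4.35, 5.67 and 5.79 TPM in LV2. The groups did not overlap, but the lowest in9 and the highest LV2 library lay close together, and the log2 fold change of 0.43 ± 0.15 (SE) had an adjusted p of 0.194 in limma. Psmb10, whose product replaces the trypsin-like subunit, had 61.3, 61.1 and 58.0 TPM in in9 against 58.8, 50.7 and 48.1 TPM in LV2. LV2 replicate 1 reached the in9 values, and the log2 fold change was 0.20 with a 95% interval of 0.00 to 0.39 (adjusted p = 0.252 in limma). Without LV2 replicate 1 it was 0.28, with an adjusted p of 0.152.

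**Figure D2:**
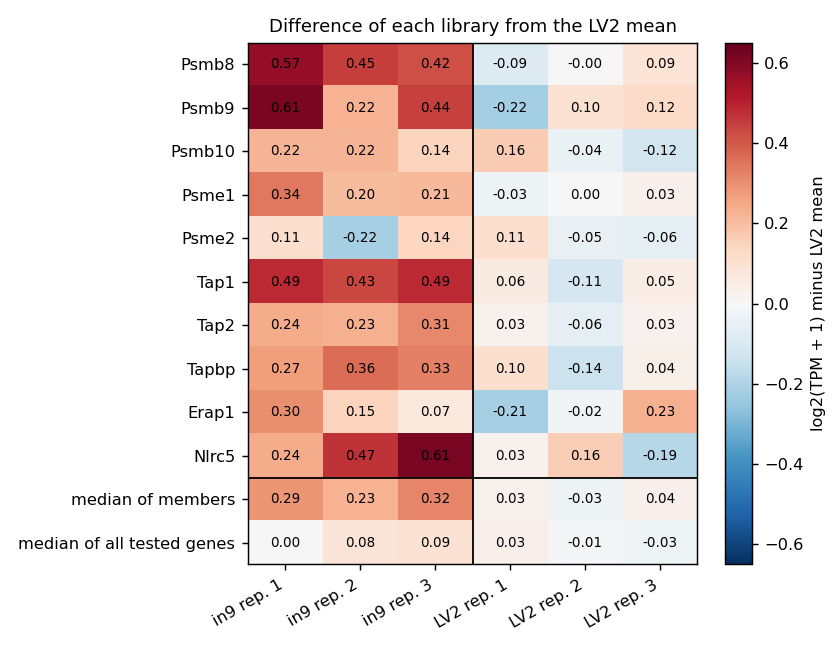
Difference in log2(TPM + 1) of each library from the LV2 mean for the 10 genes, their median and the median of all tested genes, with in9 left of LV2. The median of the members was 0.29, 0.23 and 0.32 in in9 replicates 1 to 3, and the replicate with the largest difference was not the same in each gene.

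A ratio within 1 library does not depend on how libraries are scaled. The inducible share of each pair was higher in in9. The standard subunits had log2 fold changes of -0.06 (Psmb5), -0.15 (Psmb6) and -0.17 (Psmb7), beside 0.48 for Psmb8, 0.43 for Psmb9 and 0.20 for Psmb10. Psmb8 made 33.4%, 31.9% and 31.2% of the summed TPM of Psmb8 and Psmb5 in in9 against 23.8%, 24.4% and 25.4% in LV2. Psmb9 made 3.07%, 2.52% and 2.94% of its pair with Psmb6 in in9 against 1.56%, 1.97% and 1.999% in LV2. Psmb10 made 20.997%, 21.6% and 21.3% of its pair with Psmb7 in in9 against 19.4%, 16.8% and 16.01% in LV2. In each pair the in9 libraries lay above the LV2 libraries, including Psmb10, whose own TPM overlapped. Summed over the 3 pairs, the inducible share was 20.2% ± 0.274 in in9 and 15.1% ± 0.276 in LV2 (SD, n = 3), and in9 replicate 1, at 20.5%, stood with the other in9 libraries. The log2 difference of the summed ratio was 0.51, a 1.42-fold ratio, and it stayed between 0.49 and 0.52 when any 1 library was left out. The exact two-sided permutation test gave p = 0.1 for each of these 4 ratios, the smallest value that 3 against 3 libraries allow, so no ratio could reach 0.05, and 0.133 after adjustment over the 8 ratios compared. These are shares of TPM and do not measure assembled particles.

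**Figure D3:**
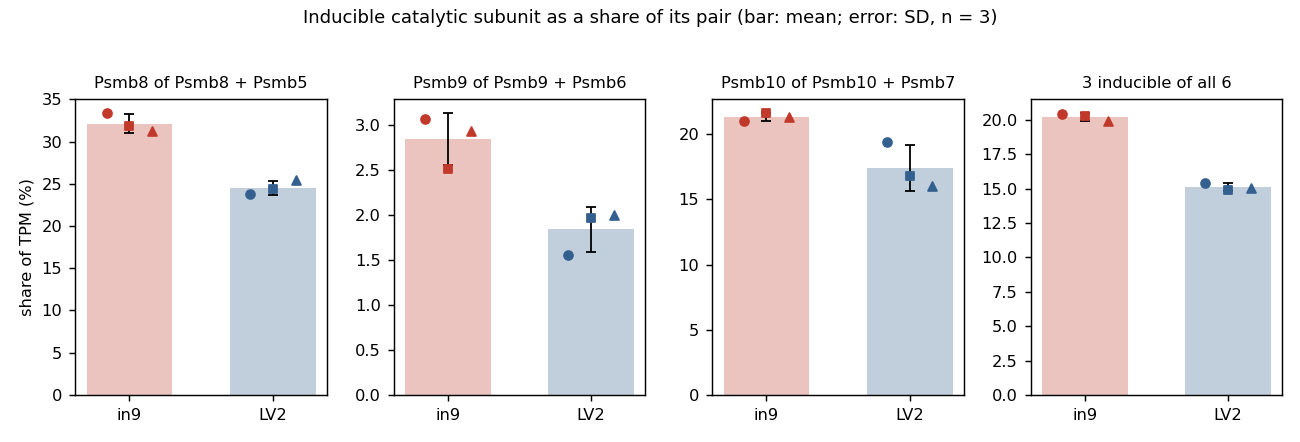
Inducible subunit as a percent of the summed TPM of its pair, and the 3 inducible subunits as a percent of all 6, for in9 (red, left) and LV2 (blue, right), with bars at the mean, SD as error bars and a point per library. The summed share is 19.9% to 20.5% in in9 and 14.9% to 15.4% in LV2.

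Psme1 and Psme2 encode the alpha and beta subunits of an interferon-inducible cap that opens the proteasome core. Psme1 had 151, 137 and 138 TPM in in9 against 116, 119 and 122 TPM in LV2. The groups did not overlap, and the log2 fold change of 0.25 ± 0.05 (SE) missed the threshold (adjusted p = 0.0789 in limma). Without in9 replicate 1, the highest of the in9 libraries for this gene, it was 0.21 with an adjusted p of 0.0306. In that fit 7.25% of all tested genes were called higher. The adjusted p of Psme1 in limma was 0.192 to 0.262 without any other 1 library. Psme2 had 150, 120 and 153 TPM in in9 against 150, 135 and 133 TPM in LV2. In9 replicate 2 was the lowest of the 6 libraries and the groups overlapped fully. The log2 fold change of Psme2 was 0.01 with a 95% interval of -0.24 to 0.26 (adjusted p = 0.967 in limma), and it turned to -0.056 after trimmed-mean scaling. The ratio of Psme2 to Psme1 was 0.992, 0.871 and 1.11 in in9 against 1.29, 1.13 and 1.10 in LV2, a log2 difference of -0.24 that overlapped between the groups (exact permutation p = 0.2) and was -0.15 without in9 replicate 2.

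Tap1 and Tap2 encode the 2 chains of the peptide transporter. Tap1 had 28.3, 27.3 and 28.3 TPM in in9 against 20.8, 18.4 and 20.7 TPM in LV2. The in9 libraries were close to each other, at 28.0 ± 0.592 TPM, and all above LV2, at 19.97 ± 1.33 TPM (SD, n = 3), with a log2 fold change of 0.47 ± 0.07 (SE) and an adjusted p of 0.0453 in limma. Tap2 had 23.6, 23.4 and 24.8 TPM in in9 against 20.2, 19.0 and 20.2 TPM in LV2, again without overlap. Its log2 fold change of 0.26 ± 0.06 (SE) had an adjusted p of 0.0974 in limma. The ratio of Tap1 to Tap2 was 1.20, 1.17 and 1.14 in in9 against 1.03, 0.972 and 1.02 in LV2. All in9 ratios were above all LV2 ratios, by 1.16-fold (exact permutation p = 0.1, and 0.133 adjusted over the 8 ratios). Tap1 set against Psmb9, its head-to-head neighbour, gave ratios of 3.33, 4.35 and 3.79 in in9 against 4.78, 3.25 and 3.57 in LV2. These overlapped fully, with a log2 difference of -0.01 (exact permutation p = 1), which turned to 0.043 with 1 TPM added to each gene, to 0.090 without in9 replicate 1 and to 0.16 without LV2 replicate 1. GENCODE M21 has the start of Tap1 overlapping that of Psmb9 on the opposite strand, and the counting is not stated to use strand, so reads there may not be told apart.

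Tapbp encodes tapasin, which bridges the transporter and class I molecules. It had 115, 123 and 120 TPM in in9 against 102, 86.4 and 98.1 TPM in LV2. The groups did not overlap, and the log2 fold change of 0.32 ± 0.07 (SE) had an adjusted p of 0.0929 in limma. That p was 0.0492 without in9 replicate 1, a fit in which 7.25% of all tested genes were called higher. Without any other 1 library it was 0.138 to 0.259. The ratio of Tapbp to Tap1 was 4.07, 4.50 and 4.23 in in9 against 4.93, 4.69 and 4.74 in LV2, lower in every in9 library (log2 difference -0.17, exact permutation p = 0.1, and 0.133 adjusted over the 8 ratios). Erap1, which shortens peptides from their amino end, had 16.01, 14.2 and 13.4 TPM in in9 against 10.9, 12.6 and 15.2 TPM in LV2. The groups overlapped, since LV2 replicate 3 exceeded in9 replicates 2 and 3. Its log2 fold change was 0.17 with a 95% interval of -0.14 to 0.48 (adjusted p = 0.50 in limma). It was 0.11 without in9 replicate 1, 0.065 without LV2 replicate 1 and 0.29 without LV2 replicate 3. Erap1 overlaps Cast, the calpastatin gene, on the opposite strand, which averaged 110 TPM over the 6 libraries, so the value of Erap1 is uncertain where reads were counted without strand.

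Nlrc5 encodes a member of the NLR family that drives transcription of class I genes and of several genes named here. It had 28.3, 33.4 and 37.0 TPM in in9 against 24.4, 26.7 and 20.8 TPM in LV2. The groups did not overlap, though in9 replicate 1 lay just above LV2 replicate 2. The log2 fold change of 0.44 ± 0.13 (SE) had an adjusted p of 0.140 in limma. Without in9 replicate 1 it was 0.54, with an adjusted p of 0.0424. In that fit 7.25% of all tested genes were called higher. The adjusted p of Nlrc5 in limma was 0.239 to 0.344 without any other 1 library. In9 replicate 1 was the lowest in9 library for Nlrc5 and Tapbp and the highest for Psmb8, Psmb9, Psmb10, Psme1 and Erap1. Ciita, the related regulator of class II genes, averaged 0.017 TPM in in9 and 0.020 TPM in LV2.

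**Figure D4:**
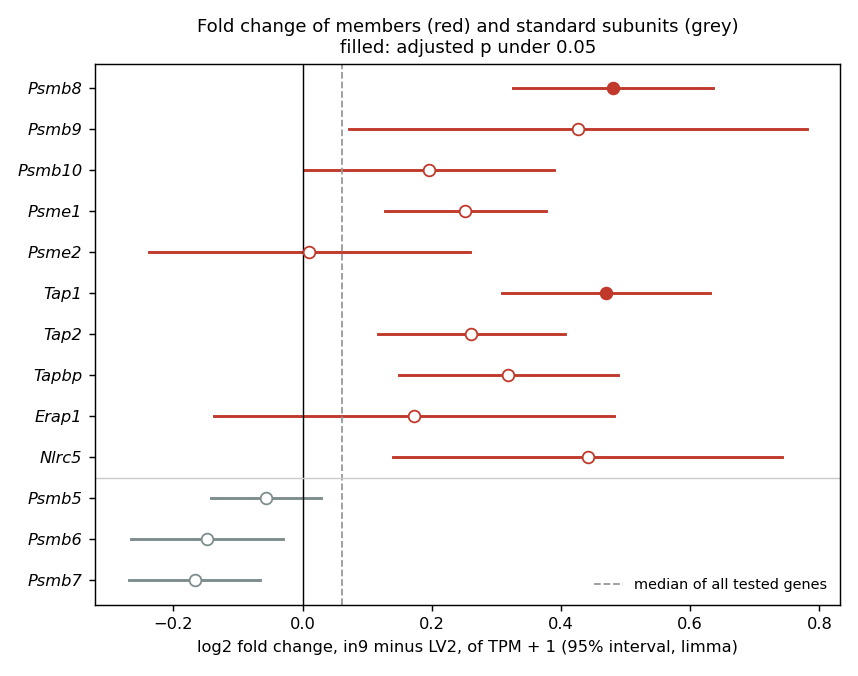
Log2 fold change of TPM + 1, in9 minus LV2, with the 95% interval from limma, for the 10 genes (red) and the 3 standard subunits they displace (grey), with filled points for an adjusted p under 0.05. Psmb8 and Tap1 are filled, the interval of Psme2 runs from -0.24 to 0.26, and Psmb5, Psmb6 and Psmb7 lie below 0.

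The calls of Psmb8 and Tap1 rested on all libraries other than in9 replicate 1. Without in9 replicate 1, Psmb8, Tap1, Psme1, Tapbp and Nlrc5 were called, 5 of 10 members, against 7.25% of 13386 tested genes. Without any other single library no member was called in limma, against 0.0749% and 0.0673% of tested genes called higher without in9 replicates 2 and 3, and 0.0597%, 0.0448% and 0.0522% without LV2 replicates 1, 2 and 3. The adjusted p of Psmb8 was 0.140 without in9 replicate 2, 0.141 without in9 replicate 3, and 0.113, 0.190 and 0.115 without LV2 replicates 1, 2 and 3. That of Tap1 was 0.161 and 0.166 without in9 replicates 2 and 3, and 0.113, 0.186 and 0.152 without LV2 replicates 1, 2 and 3. Over these 5 fits the log2 fold change was 0.44 to 0.52 for Psmb8 and 0.42 to 0.50 for Tap1. After trimmed-mean scaling, which brought the median of all tested genes to -0.0013, no member was called, against 0.642% of tested genes called higher, the adjusted p of Psmb8 was 0.101 and that of Tap1 was 0.0628, and their log2 fold changes were 0.41 and 0.40. After quantile normalization no member was called, against 0.761% of tested genes, and the adjusted p was 0.0539 for Psmb8 and 0.0640 for Tap1, with log2 fold changes of 0.46 and 0.40.

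**Figure D5:**
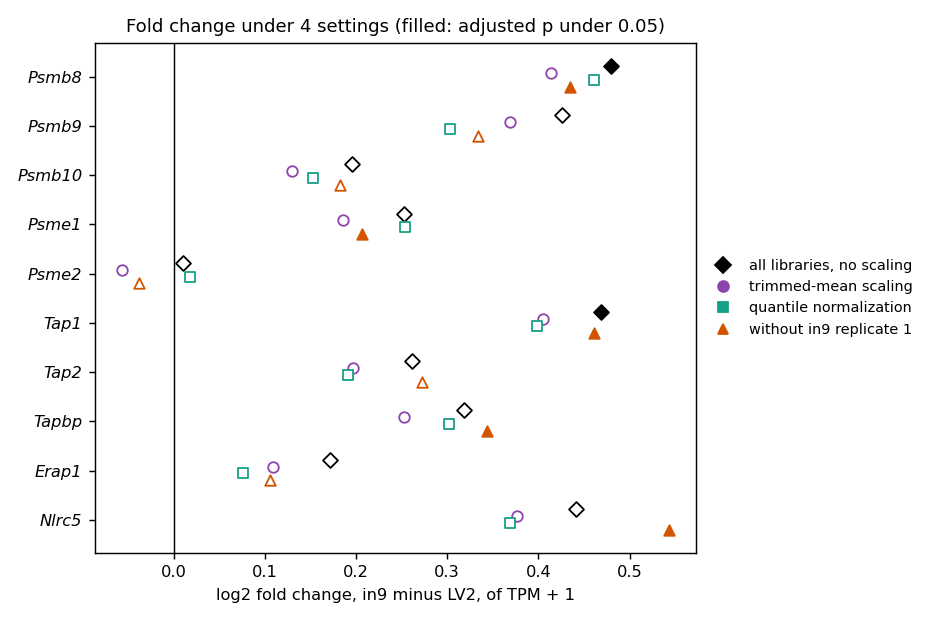
Log2 fold change of each gene, in9 minus LV2, with all libraries and no scaling, after trimmed-mean scaling, after quantile normalization, and without in9 replicate 1, with filled symbols for an adjusted p under 0.05. Of the 10 genes 9 stay above 0 in all 4 settings, and Psme2 lies on both sides of 0.

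TPM is a value per length, so levels can be set beside each other. Over the 6 libraries Psme2 (140 TPM), Psme1 (131), Tapbp (107) and Psmb8 (97.3) were the most abundant, then Psmb10 (56.3), Nlrc5 (28.4), Tap1 (23.98), Tap2 (21.9), Erap1 (13.7) and Psmb9 (6.35). Psme2 and Psme1 changed places in 2 of 6 libraries, and Tapbp and Psmb8, Nlrc5 and Tap1, and Tap1 and Tap2 in 1 each. The other neighbours in the order, such as Psmb8 over Psmb10, kept it in all 6 libraries. Psmb9 was at the 25.1 percentile of the tested genes and Psme2 at the 91.9 percentile. Across the 6 libraries, which share library and group, Tap1 and Tap2 had the highest Pearson r among the members (0.99), and Psme2 and Erap1 the lowest (-0.22).

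Of 14 standard core subunit genes of the proteasome none was called in limma, though 3 had lower values in in9 at an unadjusted p under 0.05, against 5.86% of all tested genes. Of the 14 log2 fold changes 13 were negative, against 36.3% of all tested genes, with a median of -0.08, or -0.14 when libraries were scaled by trimmed mean. The 3 with the smallest p-values were Psmb7, at 222 ± 8.15 TPM in in9 and 249 ± 4.26 TPM in LV2 (SD, n = 3), Psmb6, at 253 ± 13.9 TPM in in9 and 280 ± 4.60 TPM in LV2, and Psmb4, at 296 ± 21.6 TPM in in9 and 334 ± 14.6 TPM in LV2. Psmb5 was at 239 ± 1.96 TPM in in9 and 249 ± 4.40 TPM in LV2. Their adjusted p-values in limma were 0.116 for Psmb7, 0.182 for Psmb6, 0.203 for Psmb4 and 0.42 for Psmb5. Without in9 replicate 1, 6 of the 14 were called lower, against 3.80% of tested genes. Of 7 genes of proteasome assembly and other activators none was called, with a median of -0.04, or -0.10 after trimmed-mean scaling. Without in9 replicate 1, 2 of the 7 were called lower, against 3.80% of tested genes. Their median was then -0.09, against 0.09 over all tested genes. Psme3, which encodes the nuclear activator related to Psme1 and Psme2, was at 111 ± 1.70 TPM in in9 and 126 ± 1.19 TPM in LV2 (log2 fold change -0.18, adjusted p = 0.0789 in limma). The assembly factor genes Psmg3 and Psmg4 had log2 fold changes of -0.15 and -0.28 (adjusted p = 0.284 and 0.401 in limma).

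The class I chains themselves held 1 called gene of 6, against 0.821% of all tested genes called higher. All 6 log2 fold changes were positive, against 63.7% of all tested genes, with a median of 0.17, or 0.11 after trimmed-mean scaling. With in9 replicate 1 left out, 3 of the 6 were called higher, against 7.25% of tested genes. H2-T23, a non-classical class I gene, had 77.5 ± 1.99 TPM in in9 and 53.7 ± 3.68 TPM in LV2 (adjusted p = 0.0296 in limma), and this family of similar genes may share reads. The light chain gene B2m and the heavy chain gene H2-Q4 had log2 fold changes of 0.24 and 0.21 (adjusted p = 0.0547 and 0.0861). Of 9 other genes of loading and folding in the endoplasmic reticulum none was called. At an unadjusted p under 0.05 in limma, 2 were higher, against 13.6% of all tested genes, and 2 were lower, against 5.86%. The median of the 9 was 0.06, or -0.0043 after trimmed-mean scaling. Among them the calnexin gene Canx was at 0.19, Sppl3 at 0.22 and the translocon gene Sec61a1 at -0.13 on the log2 fold change scale. Of 10 cytosolic and endosomal peptidase genes 9 were found and tested, and 1 was called higher, against 0.821% of all tested genes. The median of these 9 was 0.03, or -0.04 after trimmed-mean scaling. With in9 replicate 1 left out, 2 of these 9 were called higher, as was 1 of the 9 loading and folding genes. The share of all tested genes was 7.25%. Npepps, which encodes a cytosolic aminopeptidase that trims peptides, had 42.1 ± 0.744 TPM in in9 and 32.0 ± 0.487 TPM in LV2 (log2 fold change 0.38, adjusted p = 0.0355 in limma). Thop1 and Lap3, also peptidase genes, were at -0.10 and -0.09 and not called.

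Of 14 genes of the interferon-gamma axis and class I regulation 13 were tested. Irf1, a transcription factor that acts on class I pathway genes, had 35.8 ± 0.333 TPM in in9 and 30.03 ± 1.51 TPM in LV2 (adjusted p = 0.0971). The kinase gene Jak2 was at 26.7 ± 2.79 TPM in in9 and 21.2 ± 1.78 TPM in LV2 (adjusted p = 0.158). The receptor gene Ifngr1 was at 15.2 TPM in both groups. Of the 13 log2 fold changes 10 were positive and 3 negative, where 63.7% of all tested genes were positive. The median of the list was 0.15, and 0.08 after trimmed-mean scaling. H2-T23 and Npepps were among the 110 genes called higher with all libraries, and none of the listed genes was called without any 1 library other than in9 replicate 1.

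The genes whose pattern over the 6 libraries was most like the mean of the 10 members, each scaled to its own SD, were Cyp2c55 (Pearson r = 0.997), Flywch2 (0.996), Itgb7 (0.994), Prpf40b (0.993) and Csf3 (0.992), out of 9382 genes with a mean of at least 5 TPM and a symbol that is not a clone or predicted name. With 6 libraries in 2 groups such values describe a shared order of libraries. Cyp2c55, a cytochrome P450 gene, had 29.4, 27.3 and 28.7 TPM in in9 against 21.8, 20.5 and 21.8 TPM in LV2. Csf3, the gene of granulocyte colony-stimulating factor, had 549, 510 and 516 TPM in in9 against 435, 419 and 434 TPM in LV2. In9 replicate 2 was the lowest in9 library in both, as in the mean of the members.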

How the data were processed

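Messenger RNA libraries of 4T1 cells were analysed, 3 labelled in9 and 3 labelled LV2, as grouped by their titles. The authors deposited TPM values per gene, with a mean column per group and a gene length. The genome build is mm10 in the submitters' processing notes. Aligner, quantifier, annotation and strand setting were not given in the sources used here. Without counts, depth is unknown and a count test was not possible. The deposited group means equalled the library means within 3.33e-05 TPM, and no pair of libraries was identical.

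The two-sided test was limma (version 3.58.1, R 4.3.3) on log2(TPM + 1) for genes whose mean reached 1 TPM, using an intensity trend, no replicate block and Benjamini-Hochberg adjustment. Fold changes on this scale understate the change of low genes. All 10 members passed the filter. Ratios of TPM within a library were compared by exact permutation. Other steps used numpy 2.4.6, pandas 2.3.3 and python 3.11.15. The steps were tested on simulated data. Of the identifiers, 55227 matched GENCODE M21 (GRCm38).

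The members and lists were chosen with earlier results of these data known. Named were all members, per list the 3 genes of smallest p and any called, Psmb5, Psmb6 and Psmb7, and the 5 genes most like the members. Of the called list genes 1, and of the promoter motifs searched 1, is not reported here. Marker genes, Ifngr1, Ciita and genomic neighbours were named outside this rule, after their values were seen. Other settings tried were leaving out each library, a replicate block, array weights, no trend, quantile normalization and scaling by trimmed mean. The trimmed mean left out 30% of log ratios and 5% of levels at each end. A minimum of 5 TPM or none, and adding 0.1 in place of 1, were also tried. Trimmed-mean scaling without in9 replicate 1 was added after the data were seen.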

Additional observations from a re-analysis of the deposited data

How the results depend on the processing

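The number of members called higher was 2. It was 0 with no filter on low values, after trimmed-mean scaling, after quantile normalization, with no intensity trend and with a replicate block, and it was 6 with array weights, 1 with trimmed-mean scaling without in9 replicate 1, and 0 to 5 when 1 library was left out. No member was called lower in any of these fits. Over all 13406 tested genes 110 were higher and 26 lower. Of the same 13406 genes, array weights gave 1166 higher and 523 lower, no trend 27 and 4, and a replicate block 1 and 1. With no filter, 24 were higher and 6 lower of 26072 genes. Trimmed-mean scaling without in9 replicate 1 gave 470 higher and 855 lower of 13386. Without 1 library, 6 to 971 were higher and 1 to 509 lower, of 13359 to 13406 genes. A minimum of 5 TPM gave 45 lower of 10563. In the pathway lists 3 genes were higher and 0 lower. With no filter 1 was higher, with no trend and with a replicate block 0, with array weights 11 higher and 4 lower, with trimmed-mean scaling without in9 replicate 1 5 higher and 12 lower, and without 1 library 0 to 9 higher and 0 to 8 lower. The cause of these moves was not tested. Deviations from the group mean correlated between same-numbered libraries with r of -0.10, 0.02 and -0.05. Between differently numbered libraries r ran from -0.06 to 0.10. No label says whether same-numbered libraries were handled together, and these values cannot decide it, since shared handling need not show over all genes.

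The log2 fold changes of 9 members were positive in all 15 alternatives. That of Psme2 was -0.056 after trimmed-mean scaling, -0.032 with array weights, -0.13 with trimmed-mean scaling without in9 replicate 1, and -0.053 to 0.12 without 1 library. The log2 difference of Tap1 to Psmb9 was 0.043 with 1 TPM added and -0.12 to 0.16 without 1 library. The other 7 ratios kept their direction in each of their alternatives. Depth is unknown, which limits what can be said of Psmb9 and other low genes.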

Other observations

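Psmb9, Tap1, Psmb8 and Tap2 lie within 34335 bases of mouse chromosome 17, among class II genes. In the 50000 bases on either side H2-DMa, which encodes a chain of a class II peptide-exchange factor, was the 1 other gene above the test's minimum, at 4.97, 4.09 and 6.91 TPM in in9 against 6.65, 3.90 and 2.93 TPM in LV2, with overlapping groups (adjusted p = 0.67 in limma). H2-DMb1 and H2-Ob were listed at 0 in all libraries, and H2-Ab1, a class II beta chain gene, averaged 0.21 TPM in in9 and 0.19 TPM in LV2. On chromosome 14, Psme1 and Psme2 are 5911 bases apart. Their neighbour Emc9 had 7.80, 8.60 and 6.88 TPM in in9 against 6.77, 5.11 and 5.00 TPM in LV2, and Dcaf11 had 14.02, 17.01 and 13.2 TPM in in9 against 11.5, 11.6 and 11.9 TPM in LV2. Neither overlapped between the groups, and their log2 fold changes were 0.41 and 0.31 (adjusted p = 0.190 and 0.182 in limma). Emc9 overlaps the end of Psme1 on the opposite strand. Irf9, Rnf31 and Pck2 had log2 fold changes of 0.18, 0.08 and 0.02, and Ipo4 and Tm9sf1 of -0.01 and -0.08. No tested gene within 50000 bases of Psme1 and Psme2 was called in limma.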
